A study of Mus musculus with 4 samples.

Results

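The aryl hydrocarbon receptor pathway was examined in hearts of mice with a GSK-3alpha S21A knock-in and of wild-type mice, through 8 genes: the cytochrome P450 genes Cyp1a1, Cyp1a2 and Cyp1b1, the further target genes Tiparp and Nqo1, the repressor gene Ahrr, the receptor gene Ahr and the gene of its partner, Arnt. The genes were chosen by symbol around Cyp1a1, and Cyp1a1 was selected on its measured difference between these same knock-in and wild-type arrays, so its values are a description and carry no test. Every probe set (the group of array probes that reads a transcript) listed for exactly 1 of these symbols was taken, which gave 17 probe sets of 45037 and 8 genes of 18193. The GSK-3alpha S21A group held 2 arrays of heart RNA from knock-in mice in which alanine replaces serine 21 of the kinase GSK-3α, and the wild-type group held 2 arrays of heart RNA. Both groups were strain C57B6, aged 3.6 months and sampled at baseline, and the labels name no other allele or agent. Whether the arrays of a group come from different animals is not in the labels, so n counts arrays and the errors may be technical. Nor do the labels give how many lines the knock-in came from.

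The aryl hydrocarbon receptor, AHR, is a transcription factor of the bHLH-PAS family that waits in the cytoplasm with a chaperone complex until it binds a ligand, such as a dioxin, a polycyclic aromatic hydrocarbon or a tryptophan derivative. It then enters the nucleus, pairs with ARNT and binds DNA elements with the core letters GCGTG near its target genes. Cyp1a1 is the classical target and is used as a readout of receptor activity in many tissues. Tiparp and Ahrr are targets whose products restrain the receptor. In the heart, AHR is known above all from the toxicity of its ligands to the developing organ.

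Promoter sequences of the 3 CYP1 genes and of Ahrr are shown because Cyp1a1 is the member with the large difference, Cyp1a2 is its divergent neighbour on chromosome 9, Cyp1b1 is the related gene elsewhere, and Ahrr holds the most core letters. They are the 250 bases before each start site, 5′ to 3′ on the gene's strand, from RefSeq on build GRCm38.p6, and capitals mark GCGTG or, for a match on the opposite strand, CACGC.
Cyp1a1, chr9:57697363-57697612, plus strand: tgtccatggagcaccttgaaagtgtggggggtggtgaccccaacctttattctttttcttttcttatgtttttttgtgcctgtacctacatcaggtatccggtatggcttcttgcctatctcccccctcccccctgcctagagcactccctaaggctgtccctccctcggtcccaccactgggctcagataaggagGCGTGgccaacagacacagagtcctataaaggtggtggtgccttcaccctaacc
Cyp1a2, chr9:57683656-57683905, minus strand: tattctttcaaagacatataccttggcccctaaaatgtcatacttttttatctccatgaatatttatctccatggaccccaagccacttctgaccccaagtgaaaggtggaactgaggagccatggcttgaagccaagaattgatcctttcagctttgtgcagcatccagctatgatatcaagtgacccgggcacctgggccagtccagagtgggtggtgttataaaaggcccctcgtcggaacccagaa
Cyp1b1, chr17:79715062-79715311, minus strand: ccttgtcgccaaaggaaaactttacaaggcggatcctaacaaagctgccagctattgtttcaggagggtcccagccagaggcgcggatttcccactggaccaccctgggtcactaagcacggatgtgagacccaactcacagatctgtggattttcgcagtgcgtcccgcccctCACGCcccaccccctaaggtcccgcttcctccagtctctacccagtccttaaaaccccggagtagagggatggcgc
Ahrr, chr13:74292332-74292581, minus strand: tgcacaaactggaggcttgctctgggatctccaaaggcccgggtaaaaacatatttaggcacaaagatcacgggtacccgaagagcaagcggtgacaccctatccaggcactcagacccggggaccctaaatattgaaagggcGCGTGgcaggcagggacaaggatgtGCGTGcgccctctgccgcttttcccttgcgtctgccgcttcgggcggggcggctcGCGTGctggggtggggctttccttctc

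A promoter was listed for 7 of the 8 genes, and that of Ahr was not among them. The core GCGTG, searched on both strands, was found in 5 of the 7 windows, against 28.2% of the 32851 windows of this length in the RefSeq table. The Cyp1a1 window holds it at bases 54 to 50 before the start, on the gene's own strand. Ahrr holds it at 3 places, Cyp1b1, Tiparp and Arnt at 1 each, and Cyp1a2 and Nqo1 at none. The longer form TNGCGTG, of which the core is a part, was found in the Ahrr window alone, against 4.10% of all windows. The start sites of Cyp1a1 and Cyp1a2 lie 14.0 kb apart and the genes are read in opposite directions. The elements through which AHR is known to induce Cyp1a1 lie farther upstream than these windows reach. A match is a run of letters only, and a missing match says nothing about binding.

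All 4 arrays read heart tissue by its defining transcripts, with the 10 cardiomyocyte markers between 13.02 and 14.86 on the log2 scale. Gsk3a itself, which carries the altered codon, read 10.62 and 10.80 in knock-in hearts, against 11.16 and 11.08 in wild-type hearts, through 1 probe set, and a changed codon need not alter a transcript's level. Array medians lay between 6.14 and 6.23. Wild-type replicate 1 was the array most unlike the knock-in pair: the SD of the log2 difference over all probe sets was 0.31 between it and each knock-in array, against 0.25 and 0.23 between knock-in replicates 1 and 2 and wild-type replicate 2. The SD was 0.21 within the knock-in pair and 0.24 within the wild-type pair.

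Cyp1a1 encodes the monooxygenase that clears many AHR ligands. Its single probe set, 1422217_a_at, read 7.60 and 7.51 in knock-in hearts, against 5.59 and 5.67 in wild-type hearts, on the log2 scale of the deposited signals. Both knock-in arrays were high, both wild-type arrays were low, and the groups did not overlap. The mean was 7.55 ± 0.06 in knock-in hearts and 5.63 ± 0.05 in wild-type hearts (SD, n = 2 each), and limma gave a difference of 1.92 (standard error 0.11). The lowest knock-in value exceeded the highest wild-type value by 1.84. The knock-in signals lay 1.43 and 1.37 above the median of their arrays and the wild-type signals at -0.64 and -0.53 from the median of theirs. Without detection calls the wild-type signal cannot be told from background, so 1.92 is a difference between signals and may understate that between transcript levels. Leaving out any 1 array kept the difference between 1.88 and 1.97.

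Among the 17 member probe sets, 1 passed a limma adjusted p under 0.05 over the whole table, that of Cyp1a1, where the background was 0.00666% of all probe sets. By size, 1 of the 8 genes, again Cyp1a1, was at least 1 higher in knock-in hearts on the log2 scale and 0 were at least 1 lower, where the background over all genes was 0.28% and 0.0165%. Since the gene was taken from this contrast, nothing further is read from these counts. The call was lost whichever of the 4 arrays was left out and with the replicate number as a block. The other 16 probe sets, of 7 genes, differed by -0.30 to 0.30 with standard errors of 0.10 to 0.22. Of these, 9 were above 0 and 7 below, with a median of 0.05 against -0.04 over all probe sets.

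**Figure D1:**
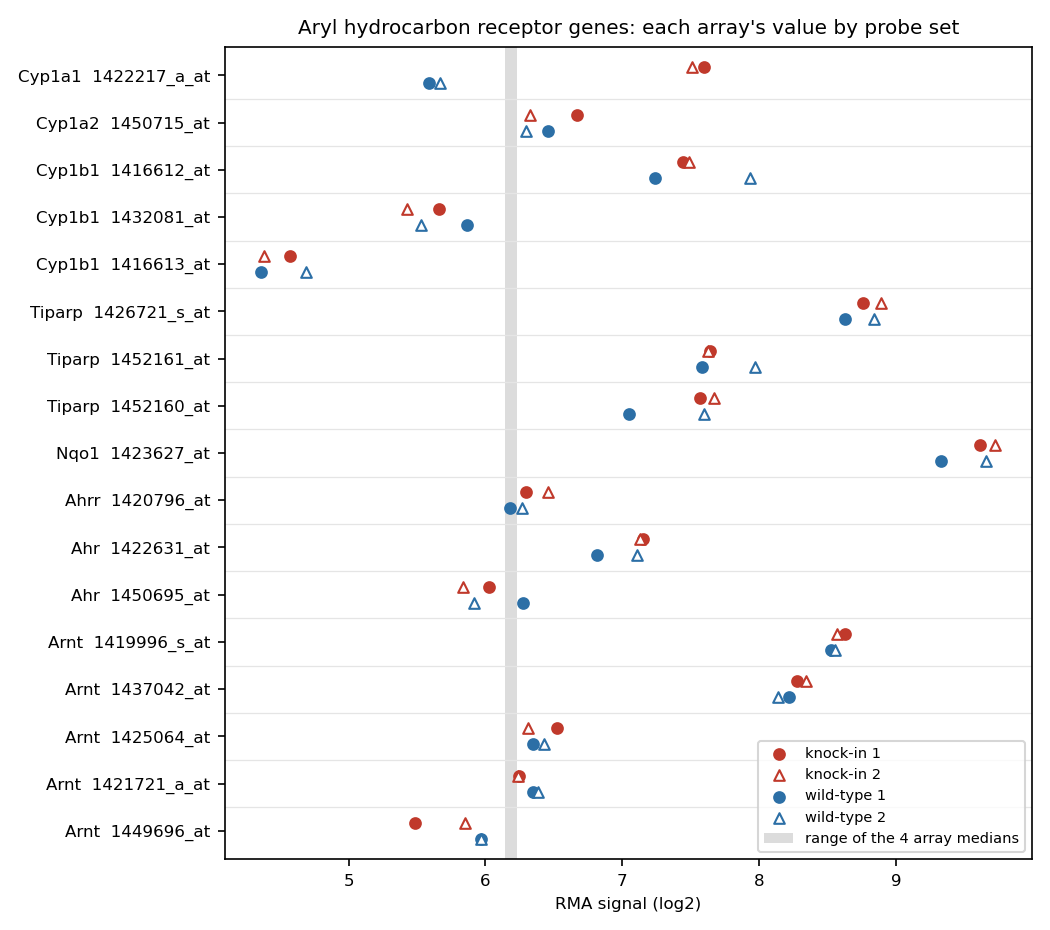
Log2 RMA signal of each array for the 17 probe sets, with knock-in arrays in red above wild-type arrays in blue in each row, circles for replicate 1, triangles for replicate 2, and a grey band over the range of the 4 array medians. In the Cyp1a1 row the knock-in arrays sit at 7.60 and 7.51 and the wild-type arrays at 5.59 and 5.67, while in every other row the gap between the groups is at most 0.30 between means.

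The other CYP1 genes did not share the size of the Cyp1a1 difference. Cyp1a2, the family member that metabolises caffeine and is mainly made in liver, read 6.67 and 6.32 in knock-in hearts, against 6.46 and 6.29 in wild-type hearts. The groups overlapped, and the difference was 0.12, with a 95% interval of -0.23 to 0.47. These signals lay 0.10 to 0.51 above the array medians and cannot be told from background. Cyp1b1 encodes the CYP1 enzyme found mostly outside the liver, in vessel walls and connective tissue among other places. Its probe set of highest signal, 1416612_at, read 7.45 and 7.49 in knock-in hearts, against 7.24 and 7.93 in wild-type hearts. The wild-type arrays lay on either side of the knock-in arrays, with a difference of -0.12 (standard error 0.22). It turned to 0.23 without wild-type replicate 2 and was -0.47 without wild-type replicate 1. The other Cyp1b1 probe sets differed by -0.15 and -0.05, with overlap in both, and lay below the array medians on all arrays. The sign of the smaller of these turned under each of the 3 other normalisations between arrays, with values up to 0.04.

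Tiparp encodes an ADP-ribosyltransferase that is induced by AHR and marks the receptor for breakdown. Its probe set of highest signal, 1426721_s_at, read 8.76 and 8.89 in knock-in hearts, against 8.63 and 8.84 in wild-type hearts. Wild-type replicate 1 was the low array and the groups overlapped. The 3 Tiparp probe sets did not run one way: 1426721_s_at differed by 0.10, 1452160_at by 0.30 and 1452161_at by -0.14, with standard errors of 0.12, 0.18 and 0.15. For 1452160_at the values were 7.57 and 7.67 in knock-in hearts, against 7.05 and 7.59 in wild-type hearts, and the difference was 0.03 without wild-type replicate 1. Without that array the difference of 1426721_s_at turned to -0.010. Nqo1, a quinone reductase gene that answers to both AHR and the oxidant sensor NRF2, read 9.62 and 9.73 in knock-in hearts, against 9.33 and 9.66 in wild-type hearts. Again wild-type replicate 1 was low and the groups overlapped, for a difference of 0.18 (standard error 0.14). Without wild-type replicate 1 the Nqo1 difference was 0.01.

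Ahrr encodes the repressor that competes with AHR for ARNT, and its transcript is itself induced by the receptor in many tissues. It read 6.30 and 6.46 in knock-in hearts, against 6.18 and 6.27 in wild-type hearts. The groups did not overlap, by a narrow margin, for a difference of 0.15 (standard error 0.11). Relative to the array medians the signals stood between -0.05 and 0.32.

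The receptor gene Ahr had 2 probe sets that differed in opposite directions. The one of higher signal, 1422631_at, read 7.15 and 7.13 in knock-in hearts, against 6.81 and 7.11 in wild-type hearts, a difference of 0.18 with a standard error of 0.13. Knock-in values were above both wild-type values, though wild-type replicate 2 came within a few hundredths of them, and the difference was 0.04 without wild-type replicate 1. The other, 1450695_at, read 6.03 and 5.83 in knock-in hearts, against 6.28 and 5.91 in wild-type hearts, a difference of -0.16 with a standard error of 0.15. These signals stood at -0.31 to 0.04 from the array medians and cannot be told from background, and the difference turned to 0.02 without wild-type replicate 1. The mean of both probe sets on each array gave a difference of 0.01.

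Arnt, whose product is the DNA-binding partner of AHR and of the hypoxia-inducible factors, had 5 probe sets with differences from -0.30 to 0.13. The one of highest signal, 1419996_s_at, read 8.63 and 8.57 in knock-in hearts, against 8.53 and 8.55 in wild-type hearts. The groups did not overlap, yet the difference was only 0.06 (standard error 0.10), and it turned to -0.03 after quantile normalisation. The next, 1437042_at, read 8.27 and 8.34 in knock-in hearts, against 8.22 and 8.14 in wild-type hearts, a difference of 0.13. The probe sets 1421721_a_at and 1449696_at were lower in knock-in hearts without overlap, by -0.12 and -0.30, and 1425064_at overlapped at 0.03. The largest of these, 1449696_at, rested on knock-in replicate 1, at 5.48 against 5.85 in knock-in replicate 2 and 5.96 and 5.97 in wild-type hearts. Without that array its difference was -0.11. The signals of 1449696_at lay below the array medians on all arrays, and those of 1421721_a_at and 1425064_at at most 0.36 above them, so these 3 cannot be told from background either.

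In all, the groups did not overlap in 5 of the 17 probe sets with the knock-in higher, where the background was 18.5% of all probe sets, and in 2 with the knock-in lower, where it was 26.7%. These counts come from the contrast that chose Cyp1a1 and nothing is read from them. Wild-type replicate 1 was the lowest of the 4 arrays in 10 of the 17 probe sets and the highest in 2, whereas over all probe sets it was lowest in 24.0% and highest in 39.5%. Without that array the small positive differences of Ahr 1422631_at, Tiparp 1426721_s_at and 1452160_at and Nqo1 were lower, as given above. Without wild-type replicate 2 they were higher, at 0.33, 0.20, 0.57 and 0.34 in the same order. From these values neither wild-type array can be called the odd one, and the cause was not tested.

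**Figure D2:**
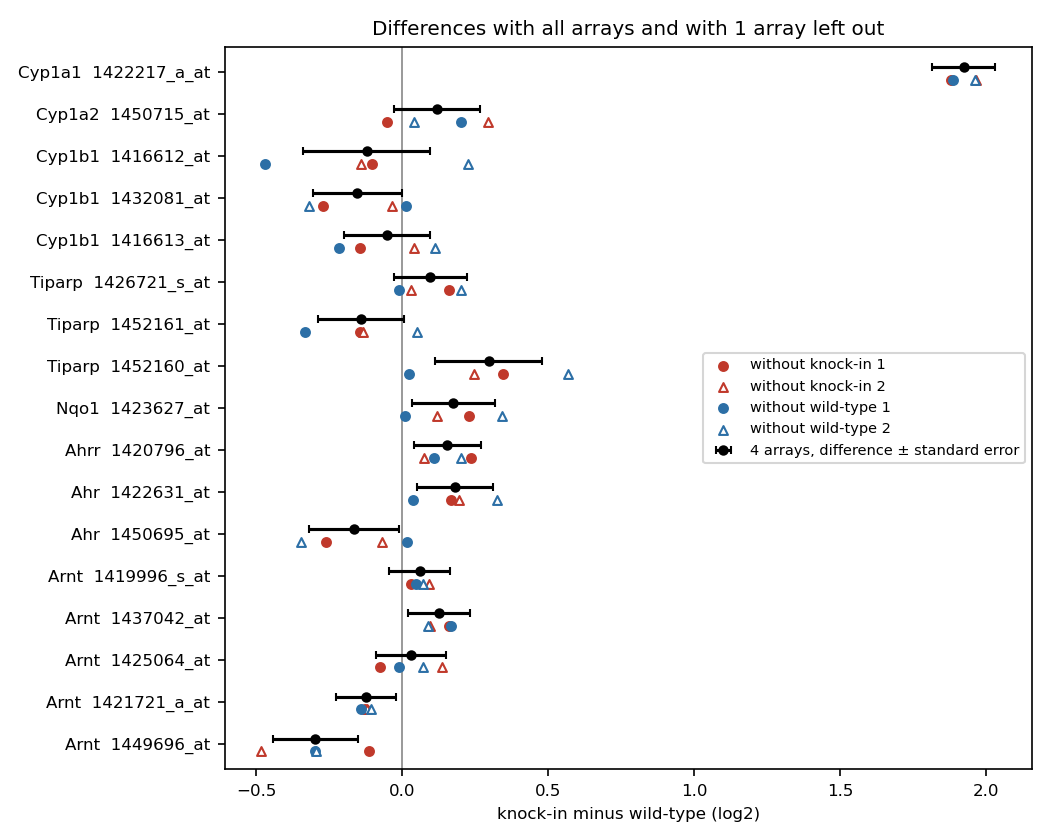
Knock-in minus wild-type log2 difference of the 17 probe sets, as black points with the limma standard error from all 4 arrays and coloured points with each array left out in turn (red without a knock-in array, blue without a wild-type array). Cyp1a1 stays between 1.88 and 1.97 in each, while the other probe sets lie within 0.57 of 0.

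Transcripts typical of liver differed on the same arrays, and Cyp1a1 and Cyp1a2 are both made in liver. Of 16 liver markers, 16 were higher in knock-in hearts, with a median difference of 1.95 against -0.01 over all genes. Albumin (Alb), the main plasma protein, read 10.81 and 9.66 in knock-in hearts, against 7.33 and 5.72 in wild-type hearts. The median marker stood at 8.98 on knock-in replicate 1 and 7.20 on replicate 2, against 6.16 on wild-type replicate 1 and 5.66 on replicate 2, and the summed log2 levels were 141 and 117 against 98.6 and 90.6. The markers were unequal between the knock-in arrays, with replicate 1 above replicate 2 for 16 of 16, by 0.42 to 2.41 and a median of 1.40. Cyp1a1 differed by 0.09 between the same arrays, but it was chosen from this contrast, where a small spread within groups favours being picked, so nothing is read from that gap. Between the wild-type arrays too each marker was higher on replicate 1, by a median of 0.41, and Cyp1a1 differed by -0.08. Cyp1a2 differed by 0.12 between genotypes and was highest on knock-in replicate 1. Its signals lay near the array medians and cannot be told from background, so nothing is read from them here. In bulk RNA, more cells of a type and more RNA per cell cannot be told apart.

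**Figure D3:**
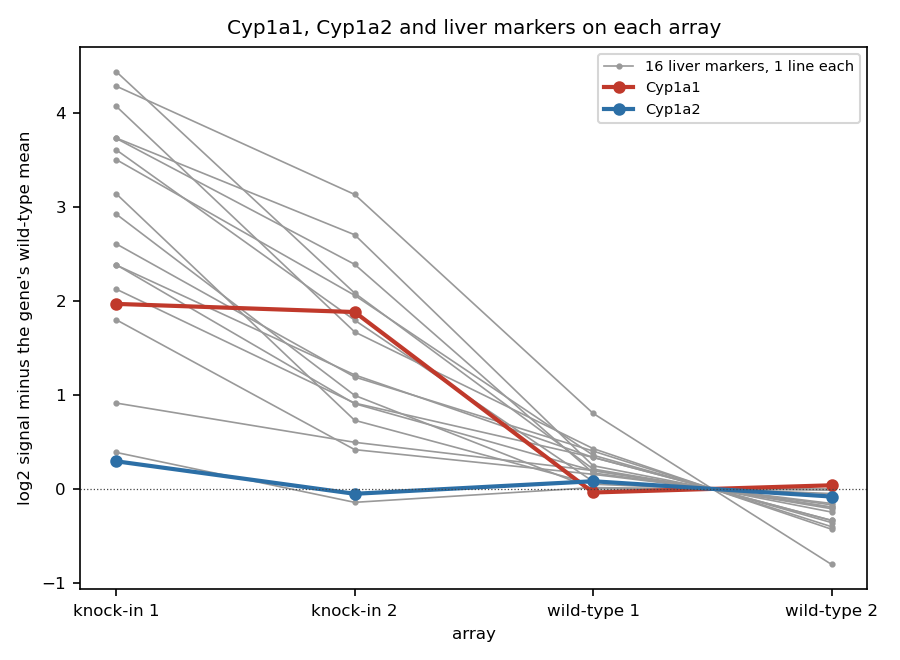
Log2 signal minus each gene's wild-type mean on the 4 arrays, with Cyp1a1 in red, Cyp1a2 in blue and the 16 liver markers in grey; lines join the values of a gene and imply no order. Each of the 16 markers is higher on knock-in replicate 1 than on replicate 2, by a median of 1.40, and Cyp1a1, chosen from this contrast, differs by 0.09 between them.

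Markers of other cells that a heart sample can hold moved by less. Of 8 lung markers 1 was higher in knock-in hearts, with a median difference of -0.12, and the surfactant gene Sftpb read 7.32 and 7.12 in knock-in hearts, against 7.32 and 7.19 in wild-type hearts. The club cell gene Scgb1a1 was uneven within both groups, at 7.16 and 5.77 in knock-in hearts, against 4.98 and 6.70 in wild-type hearts. Endothelial markers, 7 of 8 of them higher, had a median of 0.19, with the von Willebrand factor gene Vwf at 0.48. Kdr, the endothelial marker of highest signal, differed by -0.04. Of the 2 endothelial markers with further probe sets, 1 had one of opposite sign. Fibroblast markers, 8 of 8 higher by the probe set of highest signal, had a median of 0.18, with the collagen receptor gene Ddr2 at 0.35. Their direction was not shared by further probe sets: 6 of these genes had one, and in 4 of the 6 it had the opposite sign, with Ddr2 at -0.29. The medians were 0.05 for 10 cardiomyocyte markers, -0.01 for 6 of smooth muscle and pericytes and 0.12 for 6 of macrophages. For 3 of blood and fat it was 0.42, where the fat hormone gene Adipoq was high on knock-in replicate 2 alone, at 6.89 against 5.13 on knock-in replicate 1. No marker of any list, liver included, passed the adjusted limma test. At an unadjusted limma p under 0.05 the background over all genes was 5.45% higher and 4.76% lower. At that level 15 liver, 2 endothelial, 2 fibroblast and 1 macrophage markers were higher and 2 lung markers lower. The part of these cells in the Cyp1a1 difference was not tested.

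Genes that act beside the receptor showed no difference past the test over all probe sets, which called 0.011% of genes. Each gene is given by its probe set of highest signal. Of the 47 genes in the 6 lists with further probe sets, 25 had one whose difference was of opposite sign. An unadjusted limma p under 0.05 was reached by 5.45% of all genes as higher in the knock-in and by 4.76% as lower. Of the receptor's chaperones and coactivators, 9 of 12 were measured by a probe set with 1 symbol, with 5 higher, 4 lower and a median of 0.06. None of these 9 passed at the adjusted or the unadjusted level, and of the 8 with further probe sets 7 had one of opposite sign. The chaperone gene Hsp90aa1 read 11.12 and 10.99 in knock-in hearts, against 10.68 and 11.32 in wild-type hearts, so that the wild-type arrays enclosed the knock-in arrays. The coactivator genes Ncoa1, Smarca4 and Ep300 differed by -0.11, 0.10 and 0.18. Smarca4 gave -0.21 by its other probe set. Ncoa2, another coactivator gene, differed by 0.38, by 0.14 without wild-type replicate 1, and by -0.16 to 0.30 through its other probe sets.

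Of the bHLH-PAS relatives of AHR and ARNT, 12 of 12 were measured. The median was -0.10, with 9 lower and 3 higher. The adjusted test called 0, and at the unadjusted level 2 passed as higher and 0 as lower. The largest difference was that of Hif1a, the oxygen-sensing partner of ARNT, which read 10.87 and 10.79 in knock-in hearts, against 9.75 and 10.02 in wild-type hearts. The difference was 0.94 (standard error 0.13) without overlap, and further Hif1a probe sets gave -0.18 to 0.89. Npas2, a clock factor gene, gave 0.33 here, from signals close to or below the array medians, and -0.28 through a second probe set. Epas1, which encodes the endothelial hypoxia factor, differed by 0.13 and, by its other probe set, -0.16. The clock gene Arntl differed by -0.02.

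Other genes known to answer to AHR went both ways. Of 19 listed, 13 were measured, with 8 higher, 5 lower and a median of 0.07. The adjusted test called 0, and at the unadjusted level 2 passed as higher and 1 as lower. Hes1, a Notch effector gene, read 9.08 and 9.15 in knock-in hearts, against 8.43 and 8.61 in wild-type hearts, a difference of 0.60 (standard error 0.12). The hormone gene Fgf21 was the largest in the other direction, at -0.40. Its signals were 5.68 and 5.92 in knock-in hearts, against 6.23 and 6.17 in wild-type hearts. They lay close to or below the array medians and cannot be told from background. Nfe2l2, which encodes NRF2, differed by 0.40, and by 0.22 without wild-type replicate 1. Cd36, the fatty acid transporter gene, and Selenbp1 each differed by 0.12 to 0.13, and other Cd36 probe sets by -0.09 to 0.12. The aldehyde dehydrogenase gene Aldh3a1, induced with Cyp1a1 in some tissues, had low signals on every array, at 3.72 and 3.86 in knock-in hearts, against 3.79 and 3.69 in wild-type hearts.

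Genes of the NRF2 response, which shares Nqo1 with AHR, were split. Of 21 listed, 19 were measured, with 10 higher, 9 lower and a median of 0.03. The adjusted test called 0, and at the unadjusted level 1 passed as higher and 2 as lower. The glutathione transferase gene Gsta3 read 6.62 and 6.46 in knock-in hearts, against 5.47 and 5.54 in wild-type hearts, a difference of 1.04 by this probe set and 0.60 by its other. Hmox1, the haem oxygenase gene and a common marker of NRF2 activity, read 6.36 and 6.30 in knock-in hearts, against 6.65 and 6.85 in wild-type hearts, a difference of -0.42. The abundant detoxification and iron storage genes Gstm1, Gsta4 and Fth1 differed by -0.16, -0.01 and -0.02, with other probe sets up to 0.07 for Gstm1 and at 0.12 for Fth1.

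Enzymes of tryptophan breakdown around kynurenine, an endogenous AHR ligand, were all measured. Tdo2, Ido1, Ido2 and Afmid act in making kynurenine, while the others use it up, act after it or take tryptophan elsewhere, so the list as a whole does not describe kynurenine production. Of these 11, 6 were higher and 5 lower, at a median of 0.06, and 0 passed at either level. Tdo2, the liver enzyme that opens the tryptophan ring, differed by 0.35 with overlap, from signals below the array medians. Its other probe sets differed by 0.19 to 1.87. Il4i1, whose product makes AHR ligands from tryptophan in immune cells, differed by -0.20. Kyat3 and Kyat1, which turn kynurenine into kynurenic acid, differed by 0.16 and 0.10, with other Kyat1 probe sets at -0.16 to 0.46, and Afmid by -0.04.

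The drug-metabolising P450 list had the most genes at the unadjusted level, and it overlaps the liver markers in Cyp2e1 and Cyp3a11. Of 21 listed, 18 were measured, with 14 higher, 4 lower and a median of 0.20. The adjusted test called 0, and at the unadjusted level 8 passed as higher and 2 as lower. Cyp3a11, a main hepatic drug-oxidising enzyme, read 8.37 and 7.34 in knock-in hearts, against 4.89 and 4.39 in wild-type hearts. Cyp2e1, which oxidises ethanol, read 9.95 and 8.53 in knock-in hearts, against 7.75 and 6.94 in wild-type hearts. Cyb5a, which encodes an electron donor to P450 enzymes, differed by -0.80 (standard error 0.11), while Cyb5r3 differed by 0.02 and Cyp4b1 by -0.16.

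**Figure D4:**
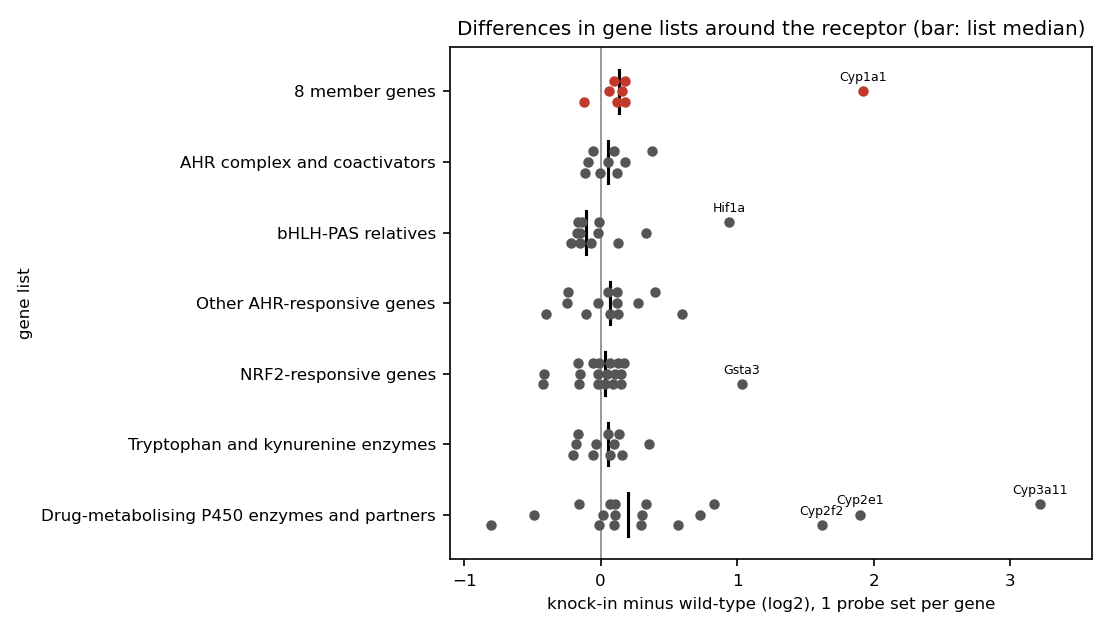
Knock-in minus wild-type log2 difference of each gene, by its probe set of highest mean signal, for the 8 member genes in red and 6 lists around the receptor in grey, with a black bar at each list's median. Cyp1a1 stands at 1.92 and the other members within 0.18 of 0; the genes above 0.9 in the lists are named.

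The genes nearest to Cyp1a1 over the 4 arrays were found by the root mean square distance between log2 values centred on each gene's mean, over 18192 other genes. The 5 nearest were Gm38983 at 0.14, the carbonic anhydrase gene Car3 at 0.23, Cth, which makes cysteine, at 0.29, Bcam, a laminin receptor gene, at 0.34, and Fbp1, of gluconeogenesis, at 0.34. Gm38983 read 6.69 and 6.74 in knock-in hearts, against 4.46 and 4.87 in wild-type hearts. Car3 read 7.80 and 8.22 in knock-in hearts, against 6.38 and 6.07 in wild-type hearts, though its other probe sets differed by only -0.00 to 0.26. With 4 arrays such nearness describes these arrays only. The other 7 members lay at 0.88 to 1.05 from Cyp1a1 and ranked from 2690 to 14116 by nearness. For a gene with little difference this distance mostly restates the Cyp1a1 difference, so nothing is read from it.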

How the data were processed

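Heart RNA of 4 mouse samples was measured on single-colour Affymetrix arrays. The authors deposited log2 values from RMA, run in Affymetrix Expression Console according to the submitters' processing notes, whose version and filters are not stated there. The labels say that normalisation covered these knock-in and wild-type arrays only. RMA brings the arrays towards a common distribution, which can remove a shift shared by most genes. The medians of the deposited values still differed, at 6.16 and 6.14 in knock-in hearts, against 6.23 and 6.19 in wild-type hearts.

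The table held 45101 probe sets; 64 control probe sets were left out. Names came from GEO's array annotation, updated by gene ID through RefSeq genes of GRCm38.p6: 34945 probe sets had 1 symbol, 932 several and 9160 none listed. A gene in a list was read by its probe set of highest mean. Differences, knock-in minus wild-type, came from limma 3.58.1 in R 4.3.3 over all 45037 probe sets, with Benjamini-Hochberg adjustment. The code of the fit was checked on simulated data with large planted differences. That check says nothing about small differences. Tables were made in Python 3.11.15. With 2 arrays a group the precision is limited, at a median standard error of 0.12. Members and lists were chosen with earlier results of these data known. Named from each list around the receptor were the 3 genes of highest mean and the 2 of largest difference. For markers the rule gave 1 of each, and not all of these are named. None is named for cardiomyocytes, smooth muscle and pericytes or macrophages. For fibroblasts and for blood and fat only the marker of largest difference is named. Outside this rule Aldh3a1, Cyp2f2, Cyp3a25 and Cyp2b10 were named after their values were seen. The alternatives covered the prior, dim and cross-hybridising probe sets, normalisation, the replicate number as a block and each array left out.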

Additional observations from a re-analysis of the deposited data

How the results depend on the processing

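The Cyp1a1 call held in 8 of 13 alternative settings, a count from which nothing is read, since Cyp1a1 was chosen from this contrast. Its difference was 1.95 to 1.99 under the 3 other normalisations; the prior, the filters and the block leave it as it is by construction. It was not past the test with the replicate number as a replicate block (1.92) or with any 1 array left out (1.88 to 1.97), settings with fewer residual degrees of freedom. The labels give same-numbered arrays a shared number, and whether they shared a batch is not stated. Over all probe sets the deviations of such arrays correlated at 0.08. Each liver marker, though, was higher on replicate 1 than on replicate 2 in both groups, and the cause was not tested. Leaving out probe sets with a mean under 7 removed Cyp1a1 from the test. The count of probe sets past the test, 3 here, was 1 with that filter, 11 with arrays shifted to 1 median, 5 at an adjusted p under 0.1, 4 with the replicate block and 0 to 2 with an array left out; without knock-in replicate 1, limma called 0, with 2155 at an unadjusted p under 0.05. All calls in these settings were higher in the knock-in, and the causes were not tested.

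For the other 16 member probe sets, the 3 other normalisations moved 8 of 48 values by more than the spread between replicates and turned the sign of 4. The mean of a gene's probe sets moved 2 of 4. With an array left out, 10 of 64 values turned sign, within -0.48 to 0.57. List medians turned sign in 11 of the 66 values that could move, in 4 of the 6 lists. The drug-metabolising P450 median, 0.20 here, was 0.32 and -0.070 without probe sets of mean under 6 and 7, 0.30 without cross-hybridising probe sets, and 0.18 to 0.35 with an array left out. Signals near the array medians cannot be told from background here, which limits Ahrr, Cyp1a2, wild-type Cyp1a1 and the dimmer probe sets of Ahr, Arnt and Cyp1b1. The same limit holds for list genes of such signal, among them Fgf21, Npas2, Tdo2 and wild-type Gsta3.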

Other observations

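Over all 71 cytochrome P450 genes with a probe set of 1 symbol, 5 were at least 1 higher in knock-in hearts on the log2 scale and 0 were at least 1 lower. Over all 18193 genes the shares were 0.28% and 0.0165%. Without Cyp1a1, which was chosen for its difference, 4 of 70 were at least 1 higher, and 2 of these, Cyp2e1 and Cyp3a11, are among the 16 liver markers. Besides Cyp1a1 these were Cyp3a11 at 3.22, Cyp2e1 at 1.90, Cyp2f2 at 1.62 and Cyp3a25 at 1.58, and these genes were named after their values were seen. Cyp2f2, abundant in liver and in airway club cells, read 8.17 and 6.70 in knock-in hearts, against 5.58 and 6.05 in wild-type hearts. Cyp3a25 read 6.66 and 4.69 in knock-in hearts, against 4.30 and 3.88 in wild-type hearts. At the lower end, Cyp2b10, the target gene of the receptor CAR in liver, read 7.30 and 7.25 in knock-in hearts, against 7.96 and 7.57 in wild-type hearts, a difference of -0.49. That difference was -0.29 without wild-type replicate 1, and other Cyp2b10 probe sets gave -0.74 to -0.66.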
